A study of Komagataella pastoris with 3 samples.

Results

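The comparison set the transcriptome of Pichia pastoris GS115 at 48 h of culture against that at 24 h, with 1 library at each time. Of the 5040 genes in the table, 5026 had at least 1 FPKM at 48 h or at 24 h and were compared. FPKM counts sequenced fragments per kilobase of a gene, scaled by library depth, so levels of different genes can be compared per length. From these, 4 sets of genes were drawn, which hold 82 locus tags in all. Upward step genes, of which there were 28, had at least 1000 FPKM at 48 h and under 100 FPKM at 24 h. Downward step genes, of which there were 7, were under 100 FPKM at 48 h and had at least 1000 FPKM at 24 h. The other sets were the 30 most abundant tags at 48 h and the 30 most abundant at 24 h.

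All cells were labelled wild type. They grew with shaking at 30 °C in YPD, a rich medium with 2% glucose, 2% peptone and 1% yeast extract. GS115 is a laboratory strain that needs added histidine and is widely used for recombinant protein production. The labels name the species Komagataella pastoris, whereas GS115 is now usually placed in Komagataella phaffii. Samples were labelled 48 h, 36 h and 24 h of culture, with no genetic difference or added agent between them. Whether the 3 samples came from the same flask, and the cell density or remaining glucose at each harvest, are not stated in the labels.

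As general background, this yeast uses glucose mainly by respiration and, unlike Saccharomyces cerevisiae, makes little ethanol when oxygen is ample. It can also grow on methanol, with a set of enzymes whose genes are repressed by glucose. When a batch culture runs out of its sugar, yeasts in general slow their growth, make fewer ribosomes and turn to other carbon sources and to stores. Which of these functions a given locus tag serves is not annotated in the tables used here, so genes are described by tag, level and course over time. The tag itself names the chromosome and a running number, so that PAS_chr3_0932 lies on chromosome 3.

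The FPKM values summed to 760684 at 48 h, against 871921 at 24 h, the median tag stood at 51.4 FPKM at 48 h, against 54.3 FPKM at 24 h, and 102 tags at 48 h, against 138 at 24 h, had at least 1000 FPKM. Sequencing depth is unknown. With 1 library a side there is no replicate error, no p-value is given, and each difference is one between 2 libraries. Changes are differences of log2(FPKM + 1), 48 h minus 24 h, and a 2-fold change is a rule of size, not a test. By that rule 914 genes, 18.2% of those compared, were higher at 48 h and 1409, or 28.0%, were lower. The median change of all genes was -0.25, and it was -0.03 after median-of-ratios scaling of the libraries, which sets the typical gene close to no change. That scaling gave 1115 higher and 1137 lower genes, trimmed-mean scaling 1137 and 1108, and equal library totals 1082 and 1170, so the excess of lower genes was seen with the deposited scaling and largely went with the others. Scaling moved every gene by a similar amount, of at most 0.26 for the 82 tags, which is small beside most changes described here.

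**Figure D1:**
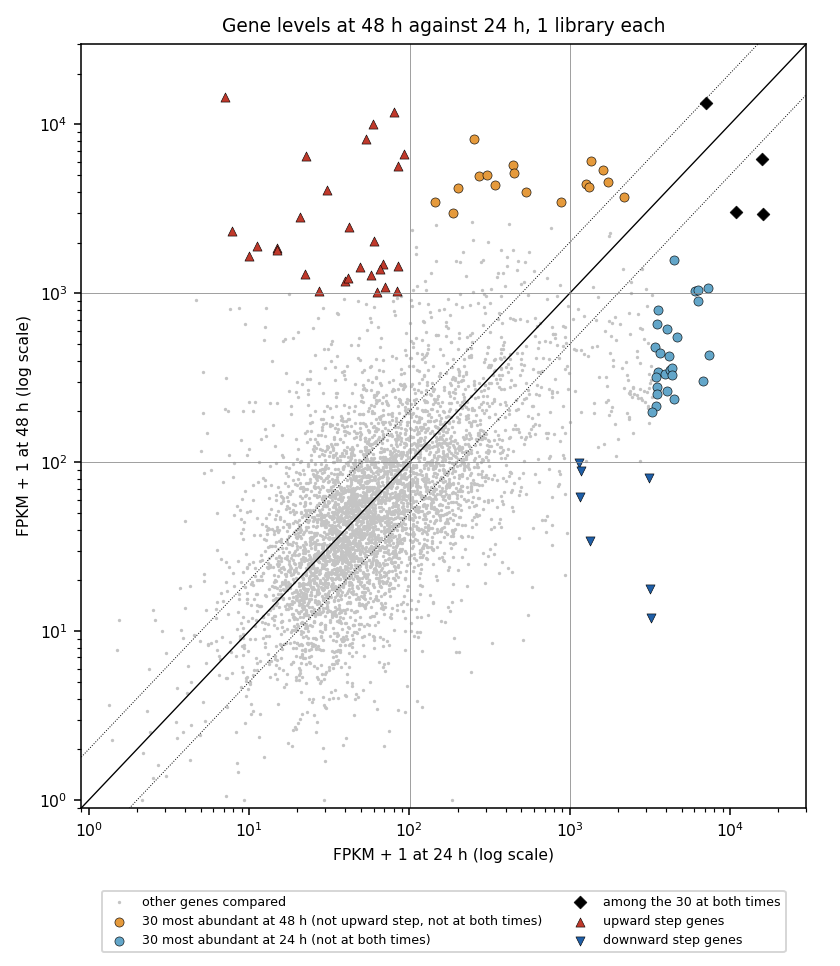
FPKM + 1 of the 5026 genes at 48 h (vertical, log scale) against 24 h (horizontal, log scale), 1 library each, with the solid line at no change, dotted lines at 2-fold and thin lines at 100 and 1000 FPKM. The 28 upward step genes fill the upper left field, the 7 downward step genes the lower right field, and of the 4 tags abundant at both times 1 lies above the line of no change.

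The upward step genes, 0.557% of the genes compared, had a median of 1835 FPKM at 48 h, against 44.6 FPKM at 24 h. Together they held 13.1% of the 48 h total and 0.14% of the 24 h total. Their median change was 5.97, or 6.22 above the median of all genes. As the 48 h and 24 h values chose them, these figures describe the set and support nothing more. At 48 h 16 of the 28 stood between 1000 and 2000 FPKM, while 7 were at 5000 FPKM or more. At 24 h 3 were under 10 FPKM, 12 were between 10 and 50 FPKM and 13 were between 50 and 100 FPKM.

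PAS_chr3_0932 had the largest change of all, 11.02, with 6.05, 6497 and 14606 FPKM at 24, 36 and 48 h. It ranked 4961st of 5040 at 24 h, 10th at 36 h and 1st at 48 h. PAS_chr3_0836 stood at 6.83, 153 and 2356 FPKM at 24, 36 and 48 h, a change of 8.23. These tags started at similar low levels at 24 h and differed most at 36 h.

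PAS_chr2-2_0208 had 21.6, 634 and 6525 FPKM at 24, 36 and 48 h, a change of 8.18. PAS_chr4_0972 had 58.6, 1655 and 10023 FPKM, a change of 7.39. PAS_chr4_0627 had 79.7, 1486 and 11902 FPKM, a change of 7.21. All 3 tags were among the 8 most abundant at 48 h, and each was at an intermediate level at 36 h.

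In 3 of the tags with the largest changes most of the log2 change came after 36 h. PAS_chr3_0023 had 8.97, 9.72 and 1658 FPKM at 24, 36 and 48 h, so that only 1.42% of its log2 change of 7.38 was present at 36 h. PAS_chr1-1_0158 had 52.4, 121 and 8251 FPKM, a change of 7.27 of which 16.4% was present at 36 h, and it was the 5th most abundant tag at 48 h. PAS_chr1-4_0481 had 10.3, 47.3 and 1915 FPKM, a change of 7.41 of which 28.3% was present at 36 h. Of the 28 upward step genes, PAS_chr3_0023, PAS_chr1-4_0481 and PAS_chr1-3_0165 were still under 100 FPKM at 36 h, the last with 69.5, 90.4 and 1087 FPKM at the successive times.

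PAS_chr4_0828 had 19.8, 358 and 2843 FPKM at 24, 36 and 48 h, a change of 7.10. PAS_chr2-1_0192 had 29.5, 449 and 4081 FPKM, a change of 7.06. Both were somewhat past the middle of their log2 change at 36 h, with 57.9% and 55.0% of it reached. These complete the 10 largest upward changes among the step genes.

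The 18 remaining upward step genes had changes between 3.62 and 6.97. PAS_chr1-4_0538 and PAS_chr2-2_0267 were near 14 FPKM at 24 h, had 1001 and 740 FPKM at 36 h, and reached 1864 and 1806 FPKM at 48 h. PAS_chr2-2_0131 and PAS_chr1-1_0118 had 6670 and 5693 FPKM at 48 h, against 91.3 and 84.6 FPKM at 24 h, the highest 24 h values of the set. PAS_chr4_0352 had 21.3, 623 and 1306 FPKM at the 3 times. Each of these 5 tags had covered more than 67% of its log2 change at 36 h.

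A slower course was seen in PAS_chr2-2_0394, with 56.7, 147 and 1277 FPKM, in PAS_chr2-2_0403, with 40.8, 170 and 1227 FPKM, and in PAS_chr3_0778, with 83.2, 199 and 1036 FPKM at 24, 36 and 48 h. PAS_chr1-4_0369 and PAS_chr3_0522 had 257 and 234 FPKM at 36 h and 1394 and 1022 FPKM at 48 h. PAS_chr3_1068 had 41.3, 316 and 2468 FPKM at the 3 times. For these 6 tags the share of the log2 change present at 36 h lay under 50%. PAS_chr3_0126, PAS_chr3_0303 and PAS_chr2-1_0776 had 332, 476 and 568 FPKM at 36 h and 1031, 1182 and 1431 FPKM at 48 h, with 68.8% to 73.2% of the change reached at 36 h.

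For 3 tags the 36 h value was above the 48 h value. PAS_chr3_0648 had 83.6, 6914 and 1445 FPKM at 24, 36 and 48 h and was the 9th most abundant tag at 36 h. PAS_chr3_0408 had 67.7, 1741 and 1485 FPKM. PAS_chr4_0337 had 59.2, 2059 and 2040 FPKM, so its 36 h and 48 h values were nearly equal. With trimmed-mean scaling or equal totals 2 of the 28 upward step genes had their highest value at 36 h.

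**Figure D2:**
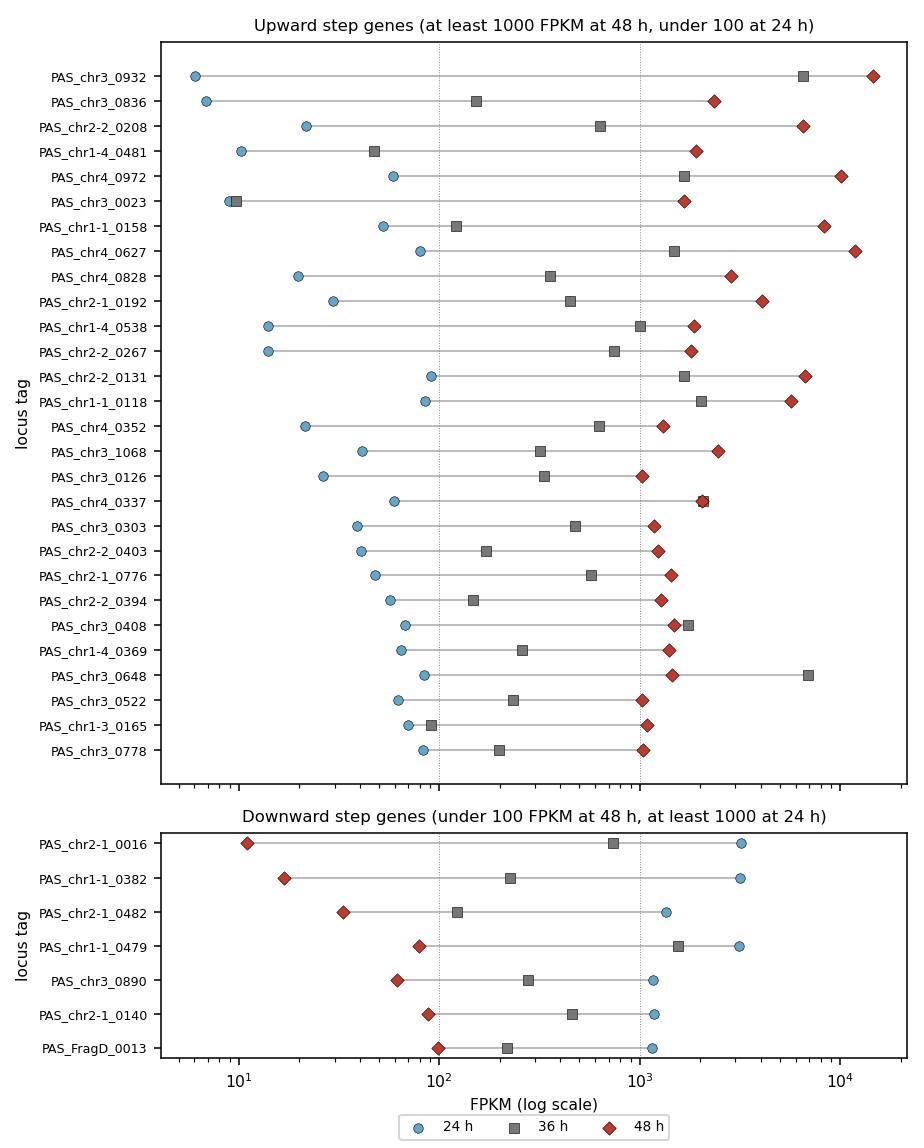
FPKM (log scale) of each of the 28 upward step genes (upper panel) and 7 downward step genes (lower panel) at 24 h (circle), 36 h (square) and 48 h (diamond), 1 library each, with dotted lines at 100 and 1000 FPKM and tags ordered by the size of the change. The 36 h squares of the upward genes range from beside the 24 h circle (PAS_chr3_0023, 9.72 FPKM) to beyond the 48 h diamond (PAS_chr3_0648, 6914 FPKM).

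The downward step genes, 0.139% of the genes compared, had a median of 61.8 FPKM at 48 h, against 1344 FPKM at 24 h. They held 0.05% of the 48 h total and 1.64% of the 24 h total, and their median change was -5.27. None of the 7 was among the 30 most abundant at 24 h, where their ranks ran from 35 to 132. PAS_chr2-1_0016 stood at 3206, 732 and 10.99 FPKM at 24, 36 and 48 h, a change of -8.06. PAS_chr1-1_0382 stood at 3160, 225 and 16.8 FPKM, a change of -7.47. PAS_chr1-1_0479 had 3109, 1547 and 79.4 FPKM, a change of -5.27. These 3 tags had nearly equal levels at 24 h and spread over a wide range at 36 h, where PAS_chr1-1_0479 alone of the 7 was still above 1000 FPKM.

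The other 4 had between 1151 and 1344 FPKM at 24 h. PAS_chr2-1_0482 had 1344, 122 and 33.0 FPKM at 24, 36 and 48 h, a change of -5.31. PAS_chr3_0890 had 1166, 276 and 61.8 FPKM, a change of -4.22. PAS_chr2-1_0140 had 1182, 456 and 87.6 FPKM, a change of -3.74. All were between 100 and 1000 FPKM at 36 h, as was PAS_FragD_0013 with 1151, 217 and 98.3 FPKM and a change of -3.54. PAS_FragD_0013 was at the limit, and with each of the 3 other scalings it no longer counted as a downward step, which left 6.

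The limits of the rule divide a continuous range of values. The upward step genes nearest to the limit at 48 h were PAS_chr3_0522, PAS_chr3_0126 and PAS_chr3_0778, with 1022, 1031 and 1036 FPKM. Just outside it at 48 h were PAS_chr4_0252, with 993 FPKM at 48 h against 16.7 FPKM at 24 h, and PAS_chr1-4_0668, with 968 FPKM at 48 h against 88.2 FPKM at 24 h. Just outside at 24 h were PAS_chr3_0287, with 2358 FPKM at 48 h against 102 FPKM at 24 h, and PAS_chr3_0640, with 1044 FPKM at 48 h against 104 FPKM at 24 h. In the downward direction PAS_chr4_0094 missed the limit with 100.6 FPKM at 48 h against 2738 FPKM at 24 h, and PAS_chr3_0870 missed it with 37.4 FPKM at 48 h against 967 FPKM at 24 h. A change as large as the smallest upward step, 3.62, was seen in 66 other genes, of which 54 were under 1000 FPKM at 48 h and 12 had at least 100 FPKM at 24 h. As large a drop as the smallest downward step was seen in 87 other genes, of which 30 kept at least 100 FPKM at 48 h and 57 had been under 1000 FPKM at 24 h.

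The 36 h library did not enter the choice of the step genes. Its value lay between the 48 h and 24 h values in 25 of the 28 upward and 7 of the 7 downward step genes. This held for 54.5% of all genes compared, for 82.3% of those at least 2-fold higher at 48 h and for 75.7% of those at least 2-fold lower. These last figures are the nearer background, but they are not matched for the size of the change. The median change was 1.73 and -1.69 in these genes, against 5.97 and -5.27 in the step genes. A wider span between the 24 h and 48 h values leaves more room for a 36 h value between them. At 36 h the upward step genes had a median of 462 FPKM, 9 had reached 1000 FPKM, 16 were between 100 and 1000 FPKM and 3 were still under 100 FPKM. The median share of the log2 change present at 36 h was 58.6% for the upward and 49.2% for the downward step genes. It was 42.2% for all genes at least 2-fold higher and 58.1% for all genes at least 2-fold lower. These shares rest on the deposited scaling, where 1442 of all genes were below both other values at 36 h and 847 above both. A shift of the whole 36 h library moves the share more where the change is small. Whether step genes moved earlier or later than other changed genes was therefore not tested. Within the upward set the share was under 25% in 3 tags, 25% to 50% in 7, 50% to 75% in 10, 75% to 100% in 5 and above 100% in 3.

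**Figure D3:**
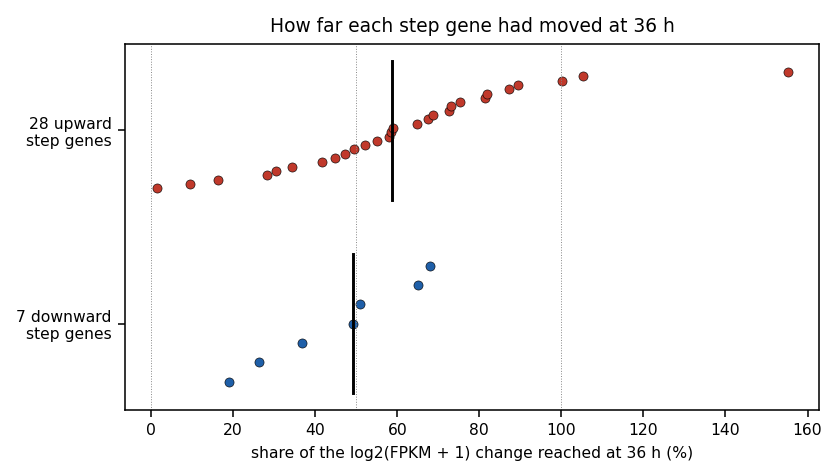
Share of the log2(FPKM + 1) change between 24 h and 48 h that was present at 36 h, in percent, with 1 point per step gene and a vertical bar at the median of each set. The 28 upward step genes range from 1.42% (PAS_chr3_0023) to 155% (PAS_chr3_0648) with a median of 58.6%, and the 7 downward step genes from 19.1% to 67.9% with a median of 49.2%.

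The 30 most abundant tags at 48 h held 23.2% of the 48 h total and 7.33% of the 24 h total. At 24 h 10 of them already had at least 1000 FPKM, 11 had between 100 and 1000 FPKM, and 9 were upward step genes. At least 2-fold higher at 48 h were 25 of the 30, against 18.2% of all genes, 20 of them at least 4-fold, against 6.78%, and 18 at least 8-fold, against 2.96%. At least 2-fold lower were 3 of the 30, against 28.0% of all genes. Since the 48 h value chose them, nothing is read from these counts. The levels at 48 h ran from 2843 to 14606 FPKM with a median of 5004 FPKM, and at 24 h the same tags ran from 6.05 to 16025 FPKM with a median of 324 FPKM.

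Behind PAS_chr3_0932 the next most abundant tag at 48 h was PAS_chr2-1_0472, with 7055, 16505 and 13308 FPKM at 24, 36 and 48 h, a change of 0.92. It was among the 6 most abundant tags in each of the 3 libraries. PAS_chr4_0627, PAS_chr4_0972 and PAS_chr1-1_0158, in places 3 to 5, were upward step genes given above, as were PAS_chr2-2_0131 and PAS_chr2-2_0208 in places 7 and 8. PAS_chr2-1_0874, in place 6, had 253, 1863 and 8156 FPKM, which put it 32.2-fold higher at 48 h than at 24 h. PAS_chr1-4_0586, in place 9, had 15894, 13791 and 6226 FPKM, a change of -1.35, and PAS_chr2-2_0392, in place 10, had 1353, 2740 and 6060 FPKM, a change of 2.16. Thus 6 of the 10 leading tags at 48 h had been under 100 FPKM at 24 h, and 2 of the 10 had already led the table at 24 h.

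Among the other 20, PAS_chr1-1_0118, PAS_chr2-1_0192 and PAS_chr4_0828 were upward step genes. Another 10 had between 100 and 1000 FPKM at 24 h. Of these PAS_chr1-1_0257 had the largest change, 4.59, with 143, 974 and 3486 FPKM at 24, 36 and 48 h, followed by PAS_chr4_0147, with 200.5, 1497 and 4198 FPKM and a change of 4.38. PAS_chr2-1_0767 and PAS_chr3_0440 had 586 and 531 FPKM at 36 h and 4983 and 5026 FPKM at 48 h, with 26.4% and 19.8% of the change present at 36 h. In PAS_chr2-1_0853, with 441, 3315 and 5734 FPKM, 78.6% of it was present at 36 h.

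The remainder of these 10 were PAS_chr4_0191, PAS_chr4_0287, PAS_chr4_0815, PAS_chr2-1_0502 and PAS_chr3_0227, with changes of 3.99, 3.66, 3.52, 2.91 and 1.97 in that order. PAS_chr1-1_0407, PAS_chr1-3_0104, PAS_chr1-1_0475 and PAS_chr4_0785 had between 1262 and 1728 FPKM at 24 h and changed by 1.82, 1.72, 1.70 and 1.40. PAS_chr3_0230 had 2200, 5832 and 3738 FPKM, a change of 0.76 with the highest value at 36 h. The remaining 2 of the 30 were PAS_chr2-1_0437 and PAS_FragB_0052, in places 27 and 29 at 48 h. Both were lower at 48 h than at 24 h and are described with the tags abundant at 24 h. At 36 h 21 of the 30 had at least 1000 FPKM. In 27 the 36 h level lay between those of 48 h and 24 h. This held for 82.3% of all genes at least 2-fold higher and 54.5% of all genes. The 82.3% is not a like background, as 3 of the 30 were at least 2-fold lower and 2 changed by less than 2-fold.

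The 30 most abundant tags at 24 h held 5.17% of the 48 h total and 19.3% of the 24 h total. At least 2-fold lower at 48 h were 29 of the 30, against 28.0% of all genes, 26 of them at least 4-fold, against 9.91%, and 17 at least 8-fold, against 3.52%. With the deposited scaling none was at least 2-fold higher, but PAS_chr2-1_0472, at 0.92, passed the 2-fold rule with the other scalings, at 1.15 with median of ratios, 1.17 with the trimmed mean and 1.11 with equal totals. These tags were chosen by the 24 h value, so the direction follows in part from the choice. None fell under 100 FPKM: at 48 h 22 were between 100 and 1000 FPKM and 8 had at least 1000 FPKM. The median was 438 FPKM at 48 h, against 4271 FPKM at 24 h, with a median change of -3.19.

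The shared tags numbered 4, which is 13.3% of each list of 30. PAS_FragB_0052, the most abundant tag at 24 h, had 16025, 4692 and 2969 FPKM at 24, 36 and 48 h, a change of -2.43. PAS_chr2-1_0437 had 10954, 16999 and 3033 FPKM, a change of -1.85, and was the most abundant tag at 36 h. With PAS_chr1-4_0586 and PAS_chr2-1_0472, given above, these were 4 of the 6 leading tags at 24 h. PAS_chr2-1_0472 was the one shared tag with a higher value at 48 h.

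At 36 h the 30 differed in how much of the 24 h level remained. The 36 h library did not choose these tags, but the 24 h value, which enters this measure, did. In 20 tags the 36 h value was 8.01% to 37.1% of the 24 h value, in the other 10 it was 85.9% to 298%, and no tag lay between. The 36 h level lay between those of 48 h and 24 h in 22 of the 30, or 73.3%. Among all genes at least 2-fold lower this share was 75.7%. With median-of-ratios, trimmed-mean and equal-total scaling the count was 19, 20 and 21 of the 30, and the 75.7% was not recomputed. The division into 20 and 10 was drawn after the values were seen, at the widest gap between them. That no tag of the 30 lay between therefore follows from how it was drawn. Among the 108 other tags with at least 1000 FPKM at 24 h, 22 lay in that gap, as did 1911 of all 5026 genes.

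The 20 tags with the early fall held 10.9%, 2.45% and 1.41% of the totals at 24, 36 and 48 h. From 36 to 48 h they had a median 1.95-fold fall, and the largest was the 3.73-fold fall of PAS_chr4_0552, which had fallen 3.26-fold by 36 h. The largest change in this group was that of PAS_chr3_1200, with 6764, 764 and 301 FPKM at 24, 36 and 48 h, a change of -4.49. PAS_chr4_0210 had 6283, 2330 and 1051 FPKM, a change of -2.58. PAS_chr2-1_0522 had 4691, 376 and 548 FPKM, and was the one tag of the 30 with its lowest value at 36 h. The 16 others beside PAS_FragB_0052 were PAS_chr2-1_0658, PAS_chr4_0552, PAS_chr2-1_0481, PAS_chr3_0762, PAS_chr2-1_0779, PAS_chr4_0669, PAS_chr1-1_0439, PAS_chr4_0348, PAS_chr3_0722, PAS_chr4_0524, PAS_chr3_1048, PAS_chr4_0413, PAS_chr4_0246, PAS_chr4_0180, PAS_chr2-1_0783 and PAS_chr1-4_0239. They had 3262 to 4498 FPKM at 24 h, 388 to 1345 FPKM at 36 h and 198 to 661 FPKM at 48 h.

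The 10 tags without the early fall, of which PAS_chr1-4_0570 and PAS_chr2-1_0472 were more than 2-fold higher at 36 h than at 24 h, took 8.33%, 12.7% and 3.77% of the totals at 24, 36 and 48 h. From 36 to 48 h their fall was 1.24-fold to 14.8-fold, with a median of 7.65-fold. The 36 h value that divided the groups enters this fall, so its difference from the other group follows in part from the division. PAS_chr3_0826 had 7429, 6384 and 433 FPKM at 24, 36 and 48 h, a change of -4.10 of which 5.33% was present at 36 h. PAS_chr3_0188 had 7289, 9520 and 1077 FPKM, a change of -2.76. PAS_chr3_0082 had 6340, 7851 and 900.0 FPKM, a change of -2.82. The fall of these 3 tags lay almost wholly after 36 h, and PAS_chr3_0188 and PAS_chr3_0082 had their highest value at that time.

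PAS_chr1-1_0072 had 6098, 7021 and 1038 FPKM, a change of -2.55. PAS_chr1-4_0570 had 4507, 13453 and 1577 FPKM, a change of -1.51, and was the 4th most abundant tag at 36 h. PAS_chr2-1_0769 had 3532, 3339 and 252 FPKM, a change of -3.80, and PAS_chr1-4_0292 had 3550, 5071 and 799 FPKM, a change of -2.15. The group also held PAS_chr1-4_0586, PAS_chr2-1_0437 and PAS_chr2-1_0472. A comparison of 48 h with 24 h alone does not separate both groups, since falls of more than 4-fold occurred in each.

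**Figure D4:**
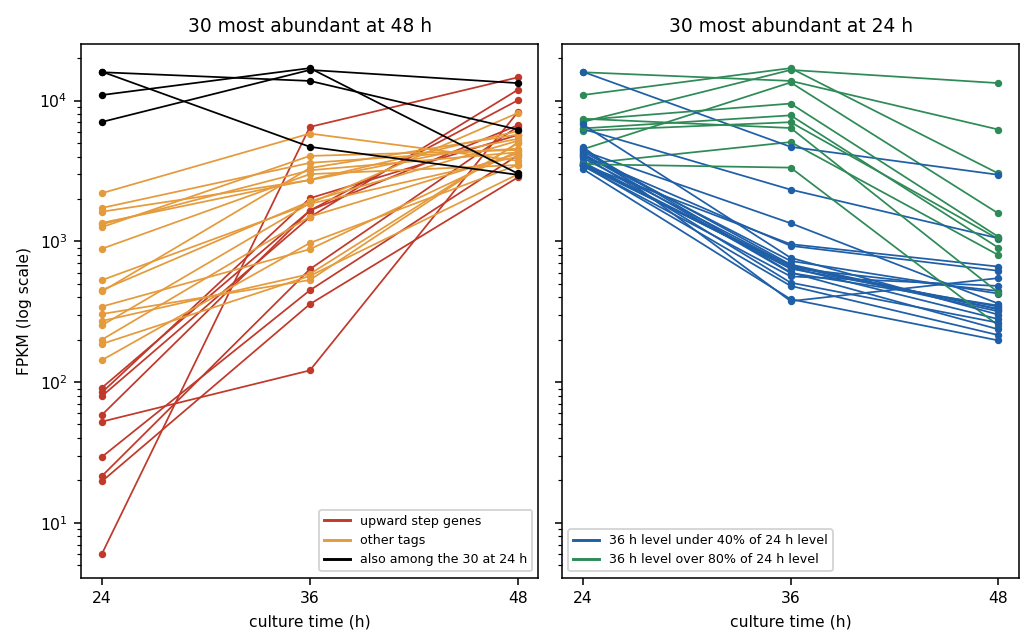
FPKM (log scale) at 24, 36 and 48 h, 1 library each, of the 30 most abundant tags at 48 h (left) and of the 30 most abundant at 24 h (right), with 1 line per tag. On the right, 20 tags are at 37.1% of their 24 h level or less at 36 h, and 10 are at 85.9% or more. As follows in part from this division, these 10 fall mostly after 36 h, apart from PAS_chr2-1_0472, which is higher at 48 h than at 24 h.

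In summed terms the tags that were higher at 48 h gained 379077 FPKM over 2118 tags, and the 2908 tags that were lower fell by 490317 FPKM. The 28 upward step genes made up 25.9% of the summed gain and PAS_chr3_0932 alone 3.85%. The 30 most abundant tags at 48 h made up 37.7% of it. The 30 most abundant tags at 24 h made up 27.5% of the summed loss, and the 7 downward step genes made up 2.84%. PAS_FragB_0052 alone made up 2.66% of the whole summed loss. To reach 50% of the gain took 54 tags, and to reach 50% of the loss 74. These sums rest on the deposited scaling, in which the 48 h total is lower than that of 24 h.

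**Figure D5:**
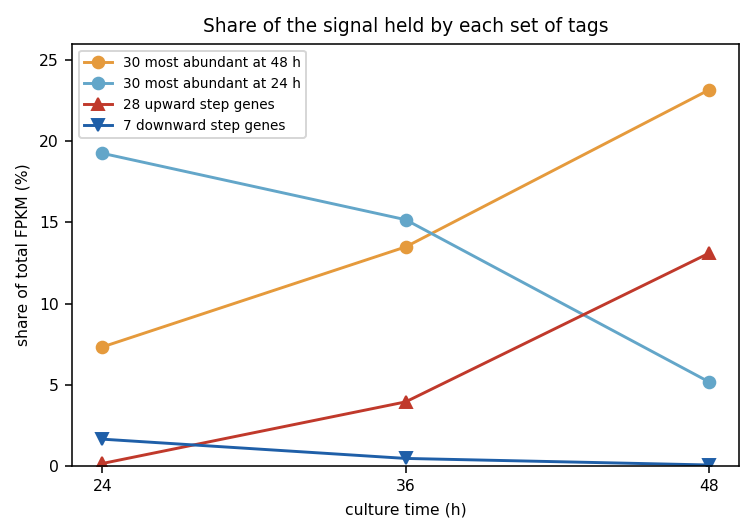
Share of total FPKM in percent at 24, 36 and 48 h, 1 library each, held by the 4 sets of tags. The 30 most abundant at 48 h rise to 23.2% and the 28 upward step genes to 13.1%, while the 30 most abundant at 24 h end at 5.17% and the 7 downward step genes at 0.05%.

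By the chromosome that the tags name, the upward step genes were spread over all 4 chromosomes, with 6 on chromosome 1, 7 on chromosome 2, 10 on chromosome 3 and 5 on chromosome 4. These chromosomes hold 28.8%, 26.4%, 23.4% and 18.8% of the genes compared. The 7 downward step genes comprised 2 on chromosome 1, 3 on chromosome 2, 1 on chromosome 3 and PAS_FragD_0013 on a fragment. Only 1 pair among the 82 tags had consecutive numbers: PAS_chr2-1_0481, among the most abundant at 24 h, and PAS_chr2-1_0482, a downward step gene. Their levels at 24, 36 and 48 h were 4341, 684 and 327 FPKM for the first and 1344, 122 and 33.0 FPKM for the second. No 2 upward step genes were consecutive. No positions were used, so the distance or overlap of such genes is not given here.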

How the data were processed

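One table of messenger RNA levels was analysed, with 1 library each for 24, 36 and 48 h. Its deposited FPKM values were made by the authors, per the file headers. Per the submitters' processing notes, CASAVA and HISAT2 2.1.0 were used. Their counting program, genome build, annotation and strand setting are not given in the sources. Columns were matched to times by the code in each sample title. Genes with at least 1 FPKM at 48 h or 24 h were kept, which removed 14. The thresholds, the 4 sets and the rule for named tags (all step genes and both lists of 30) were chosen with earlier results of these data known. Whole reads could not be recovered from the 19 genes under 3 FPKM in both libraries, so depth is unknown. Of 5040 tags, 0 matched the reference table of 5305 genes, which covers another species, and 14 gene lists on metabolism, translation, stress and related functions therefore had no members and no values. Counting and scaling were checked on simulated data. Alternatives were other thresholds, pseudocounts of 0.1 and 10, filters, list lengths and scalings. Python 3.11.15, numpy 2.4.6, pandas 2.3.3 and matplotlib 3.10.9 were used.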

Additional observations from a re-analysis of the deposited data

How the results depend on the processing

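Of 53 counts and percentages recomputed under the alternatives, 47 stayed within 1.5 times the reported count or within the exact 95% binomial interval of the reported percentage. Both bands are rules of size, not tests. The tags were picked by level and the lists overlap, so the interval measures no sampling error. The 6 values outside the bands follow from a stricter or looser rule. With limits of 50 and 2000 FPKM there were 6 upward and 2 downward step genes, and with limits of 200 and 500 FPKM there were 104 and 75. With the 4-fold rule 341 genes were higher and 498 lower. Upward step genes numbered 35 with median-of-ratios scaling, 36 with trimmed-mean scaling and 32 with equal library totals, a scaling chosen after seeing the data, and each of these held the 28 reported. In lists of 20, 50 and 100 tags, 2, 4 and 14 of the most abundant at 48 h were also on the 24 h list. Each of the 82 tags kept the sign of its change, but this could not have come out otherwise. A pseudocount cannot alter a sign. Scaling moved a tag by at most 0.26, less than the smallest change of the 82, 0.76 in PAS_chr3_0230. The largest shift was that of PAS_chr3_0932, to 9.83 with a pseudocount of 10. Leaving out a replicate in turn was not possible with 1 library per time. No paired analysis was possible because there is a single library at each time. The unknown depth bears most on tags with few FPKM.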

Other observations

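Tags next to the upward step genes by number were looked at after the members were known. Of 53 such tags, 21 were higher and 5 lower at 48 h by the 2-fold rule, or 39.6% and 9.43%, beside 18.2% and 28.0% of all genes. Their median change was 0.53, beside -0.25 for all genes. The largest rise was that of PAS_chr3_0302, next to PAS_chr3_0303, with 19.1, 64.2 and 242 FPKM at 24, 36 and 48 h. Larger in size was the drop of PAS_chr2-1_0191, next to PAS_chr2-1_0192, with 434, 95.9 and 21.6 FPKM, a change of -4.27. Among the 55 neighbours of the 30 most abundant tags at 48 h, 14 were higher and 12 lower by the same rule. Among the 54 neighbours of the 30 most abundant at 24 h, tags that were themselves mostly lower at 48 h, 17 were higher and 11 lower, or 31.5% and 20.4%. Of the 13 neighbours of the downward step genes 3 were higher and 6 lower. More higher than lower neighbours were thus also seen beside the tags abundant at 24 h, but not beside the downward step genes. Whether neighbouring genes overlap was not examined, and the strand setting of the counting is not stated.

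A neighbour can also go the other way. PAS_chr2-1_0017 had 103, 203 and 842 FPKM at 24, 36 and 48 h, a change of 3.03, beside PAS_chr2-1_0016, the tag with the largest drop.

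At 48 h 4 of the compared tags were listed at 0. The most abundant of these at 24 h was PAS_chr1-4_0249, with 184 FPKM at 24 h, 74.97 FPKM at 36 h and a listed 0 at 48 h. The others had 28.3 FPKM or less at 24 h.

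A level of at least 1000 FPKM at 48 h against under 10 FPKM at 24 h was seen in 3 tags. No tag made the reverse move. The 3 were PAS_chr3_0932, PAS_chr3_0836 and PAS_chr3_0023, all on chromosome 3. That chromosome holds 23.4% of the genes compared and 10 of the 28 upward step genes. A link to the chromosome was not tested. Of the 5026 genes compared, another 52 had at least 1000 FPKM at 48 h against between 100 and 1000 FPKM at 24 h. The reverse move was made by 109. These counts rest on the deposited scaling, in which 102 tags at 48 h and 138 at 24 h had at least 1000 FPKM. They were not recomputed with the other scalings, with which the excess of lower genes largely went.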
